A study of Blattella germanica with 16 samples.

Results

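The genes described here are those annotated as methyl farnesoate epoxidase, together with any gene named for juvenile hormone or farnesoic acid, in fat body of the German cockroach Blattella germanica. Members were the genes whose product name holds one of those 3 terms and that had at least 10 reads in at least 4 of the 16 libraries. Of the 28676 genes in the table, 7 matched by name and 3 passed the read minimum, all of them methyl farnesoate epoxidases: CYP15A1_3 (locus C0J52_09986), CYP15A1_0 (C0J52_09755) and CYP15A1_1 (C0J52_27324). Each of the 3 had at least 10 reads in all 16 libraries.

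Juvenile hormone is a sesquiterpenoid that keeps immature insects immature and, in adult females of many species, drives yolk production and egg maturation. It is made in the corpora allata, a pair of glands behind the brain, from acetyl-CoA through the mevalonate pathway to farnesyl diphosphate, which is turned into farnesol, farnesoic acid, methyl farnesoate and finally the hormone. In cockroaches the last step, the epoxidation of methyl farnesoate, is catalysed by CYP15A1, a cytochrome P450 described in the corpora allata of the cockroach Diploptera punctata. The fat body, which combines tasks of the vertebrate liver and adipose tissue, is known mainly as a target of the hormone, where it induces the yolk precursor vitellogenin in B. germanica. The product names used here are those of the annotation, and the activity of these genes was not measured.

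Fat body RNA came from females given 2 injections of 2 µg of double-stranded RNA, which lowers the matching transcript by RNA interference. The dsRNA was directed at insulin receptor 1 (dsInR1), 2 (dsInR2) or 3 (dsInR3), or was a control (dsMock), and each group had 4 libraries. The column names of the control hold dspolyh, taken here as a polyhedrin dsRNA. The tissue was dissected in the second reproductive cycle after the first ootheca, the egg case, had been removed, and all animals came from 1 laboratory population. The comparisons ask how dsRNA against each receptor changes these transcripts, and they share the 4 dsMock libraries.

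Depth per library was 15.3 to 21.2 M reads for the controls, 16.5 to 21.6 for dsInR1, 16.4 to 23.7 for dsInR2 and 15.5 to 20.99 for dsInR3. The gene annotated as insulin-like receptor (InR) had 50.9 to 54.6 CPM (reads of a gene relative to the TMM-scaled library total) in dsMock and 3.42 to 7.90 in dsInR2. It had 46.2 to 51.4 CPM in dsInR1 and 30.4 to 46.1 in dsInR3, so it checks the dsInR2 label only. Whether the dsRNA lowered its own target in dsInR1 and dsInR3 was not checked here. The 9 genes of the fat body marker list summed to 23011 to 37623 CPM in dsMock and 59306 to 105241 in dsInR2. Apolipophorin and transferrin (TRF) made up most of that sum, TRF at a mean of 555 CPM in dsMock and 16116 in dsInR2. Of the 9 genes, 4 were called higher and 3 lower in dsInR2 against dsMock. Of all tested genes, 17.6% were called higher and 14.7% lower. The name pattern for transferrin also matched acetyl-transferring, and so took in pyruvate dehydrogenase kinases and a phosphatase, which are not fat body markers. Of these, Pdk_0 and Pdk_1 were called lower and PDP1 higher. Among the other matches, apolipophorin, TRF and the trehalose-phosphate synthase tpsA were called higher and hexamerin lower. The summed CPM of the 34 markers of gut and Malpighian tubule was lower in every dsInR2 library than in every control, at 512 to 752 against 774.5 to 1328. The markers did not fall as a set. Of the 15 tested, 2 were called higher and 4 lower in dsInR2 against dsMock, with a median log2 fold change of 0.22, and 8 of the 34 had no read in any library. Their part in the results on the epoxidase genes was not tested. The 39 markers of nervous tissue and neuroendocrine glands summed to 33.5 to 40.9 CPM in dsMock and 31.3 to 40.2 in dsInR2, and 13 of them had no read in any library. Most of these sums came from CUGBP Elav-like family member 2 (celf2), matched through elav in its name. It had a mean of 23.4 CPM in dsMock and 20.5 in dsInR2, beside mean sums of 37.5 and 36.7. The sums therefore say little on nervous or gland tissue. The sums for muscle, hemocyte, ovary and epidermis markers overlapped between dsInR2 and dsMock, but single markers were called. Of 6 tested ovary markers, vas_0 was called higher and vas_1 and Siwi lower in dsInR2 against dsMock. Siwi made up most of the ovary sum, at a mean of 118 CPM in dsMock and 81.7 in dsInR2. Of 5 tested epidermis markers 1 was higher (CUO7_0) and 0 lower. For muscle it was 1 higher and 0 lower of 15, and 0 of 3 hemocyte markers were called. The most abundant gene, the hypothetical protein C0J52_15443, took a mean of 55.1% of the reads in dsMock and 3.36% in dsInR2, and dsInR3 library 3 stood apart from its group with 35.1%.

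CYP15A1_3 took more reads than all other P450 genes together in the control fat body and fell 35.0-fold in dsInR2, to a level that none of the other 12 libraries came near. The same transcript did not pass the test in dsInR1 or dsInR3. CYP15A1_0 and CYP15A1_1 passed the test in none of the 6 comparisons. The balance of the 3 genes within a library therefore differed between dsInR2 and the other groups.

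CYP15A1_3 lies on contig PYGN01000349.1 from base 299757 to 327450 of assembly Bger_1.1, a locus of 27694 bases. The 4 dsMock libraries (1, 3, 4 and 5) held 63699, 48393, 51089 and 33022 reads of it, or 3173, 3384, 3592 and 1846 CPM. The 4 dsInR2 libraries (1, 4, 7 and 8) held 694, 3854, 4116 and 170 reads, or 35.0, 151, 150 and 6.07 CPM. Every dsInR2 library was below every control library. Of 12 other tested genes on this contig, 3 were called higher and 4 lower in dsInR2 against dsMock, a comparison in which 17.6% of all tested genes were called higher and 14.7% lower.

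Relative to the control mean, dsInR2 libraries 4 and 7 kept 5.05% and 5.00% of the transcript, library 1 kept 1.17% and library 8 kept 0.202%. The highest of the 4 was 24.9-fold above the lowest, so the size of the decrease differed strongly between libraries of the same treatment. Even so, the lowest of the 12 other libraries, at 1733 CPM, was 11.5-fold above the highest dsInR2 library.

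In dsInR1 libraries 2, 5, 6 and 7, CYP15A1_3 was at 1733, 4857, 5332 and 3390 CPM (25116, 86070, 67769 and 68235 reads). In dsInR3 libraries 3, 5, 6 and 7 it was at 3617, 4905, 4558 and 3459 CPM (88406, 99541, 61283 and 67541 reads). Both groups overlapped the controls, with dsInR1 reaching below and above them and dsInR3 lying in their upper part and above.

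**Figure D1:**
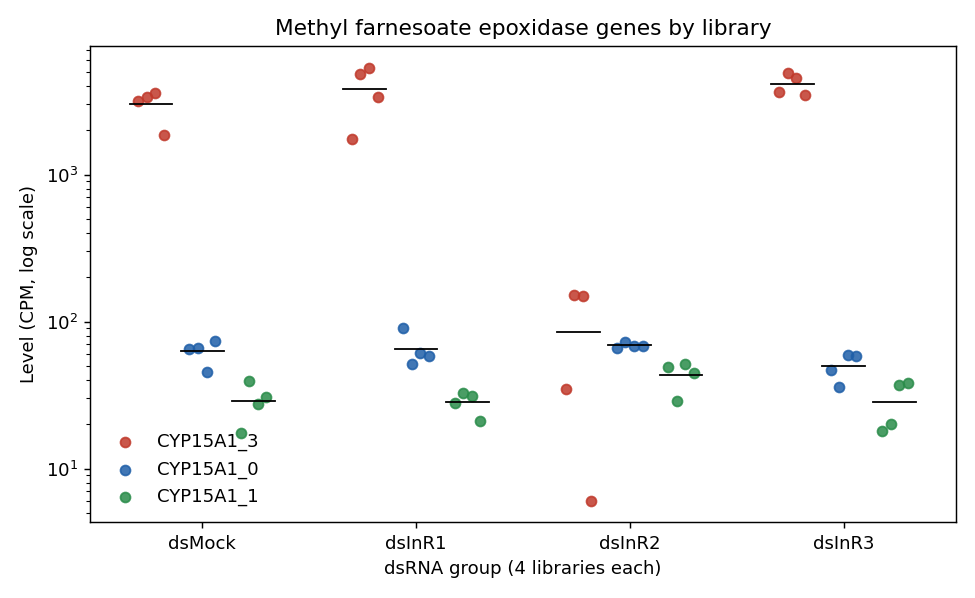
CPM (log scale) of the 3 epoxidase genes in each of the 16 libraries, by group, with the group means as lines. CYP15A1_3 lies between 1733 and 5332 CPM in the 12 dsMock, dsInR1 and dsInR3 libraries and between 6.07 and 151 in dsInR2, whereas the dsInR2 and dsMock values of the other 2 genes overlap.

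The mean level of CYP15A1_3 was 2999 ± 787 CPM in the controls (SD, n = 4 in each group). It was 3828 ± 1623 after dsInR1, 85.6 ± 76.0 after dsInR2 and 4135 ± 706 after dsInR3. From high to low the order was dsInR3, dsInR1, dsMock and dsInR2, and no difference among the first 3 passed the test. The F test over the 4 groups gave an adjusted p of 0.00055 for this gene in edgeR, a test that 29.4% of the 10536 tested genes passed.

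Against dsMock, the log2 fold change of CYP15A1_3 in dsInR2 was -5.13 (SE 0.77, 95% interval -6.77 to -3.49, edgeR adjusted p 0.000179). It was the only one of the 3 epoxidase genes called in this comparison, in which 32.3% of all tested genes were called, 17.6% higher and 14.7% lower. Of the 1551 genes called lower, 23 had a lower log2 fold change than CYP15A1_3. The exact two-sided permutation test of the 4 against 4 log2 CPM values gave p = 0.0286, the smallest that this design allows, or 0.0857 after adjustment over the 3 comparisons with dsMock. In bulk tissue, fewer cells that make a transcript and less of it per cell cannot be told apart.

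The direction held without either of the 2 lowest dsInR2 libraries, at -4.87 without library 1 and -4.74 without library 8. It also held without C0J52_15443 among the counts, at -5.14.

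Against the other 2 receptor treatments the decrease was of like size. CYP15A1_3 was 44.7-fold higher in dsInR1 relative to dsInR2 (a log2 difference of 5.48, SE 0.78, edgeR adjusted p 0.000142), a comparison in which 31.1% of tested genes were called and 14.3% were higher in dsInR1. It was 48.3-fold lower in dsInR2 than in dsInR3 (log2 fold change -5.59, SE 0.79, adjusted p 0.000181), where 22.9% of tested genes were called and 11.3% were lower in dsInR2. These are tests of the differences between the treatments themselves, and they share the dsInR2 libraries with the comparison above.

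In dsInR1 against dsMock the log2 fold change of CYP15A1_3 was 0.35 (SE 0.65, 95% interval -1.02 to 1.73, edgeR adjusted p 1, exact permutation p = 0.543). None of the 3 epoxidase genes passed, at an unadjusted p under 0.05 either, and the share of all tested genes called was 0%, with 347 genes at an unadjusted p under 0.05. The interval leaves room for moderate changes in either direction. DESeq2 called 7 genes and limma-voom 0 in this comparison, with no epoxidase gene among them.

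In dsInR3 against dsMock the log2 fold change was 0.46 (SE 0.65, 95% interval -0.91 to 1.84, edgeR adjusted p 0.801). The exact permutation p was 0.0571, or 0.0857 adjusted over the 3 comparisons with dsMock, the same adjusted value as for dsInR2. None of the 3 genes passed, where 0.304% of all tested genes did (0.199% higher and 0.104% lower) and 1546 had an unadjusted p under 0.05. Without dsInR3 library 3 the value was 0.52. Between dsInR1 and dsInR3 the log2 difference of CYP15A1_3 was -0.11 (95% interval -1.49 to 1.26, adjusted p 0.975), with 0% of all genes called by edgeR, 970 at an unadjusted p under 0.05, 84 by DESeq2 and 0 by limma-voom.

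**Figure D2:**
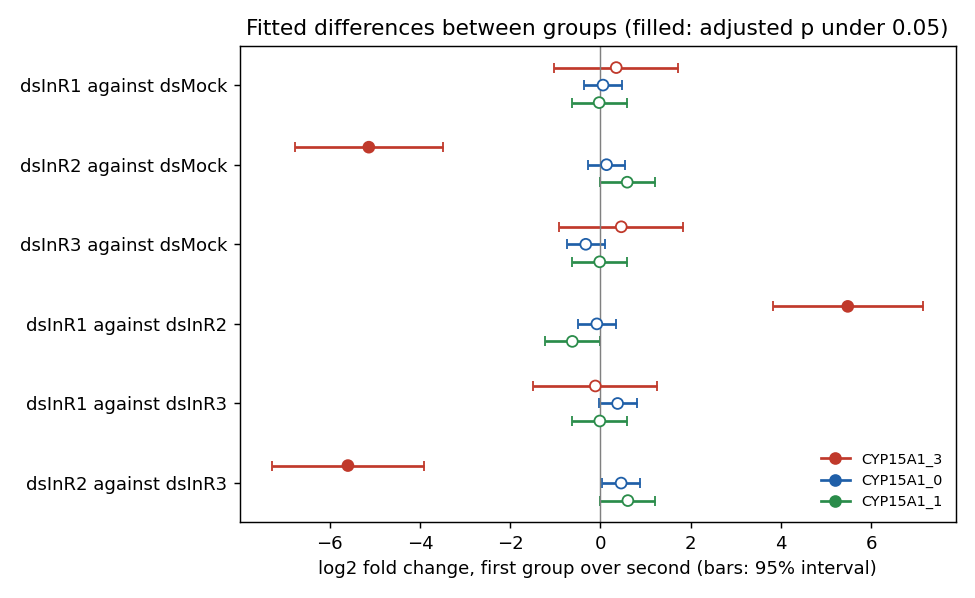
Log2 fold change of each epoxidase gene in the 6 comparisons (edgeR), with 95% intervals as bars. The 3 comparisons that involve dsInR2 lie at -5.13, 5.48 and -5.59 for CYP15A1_3, and the intervals of the other comparisons and genes include 0 or end near it.

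CYP15A1_0 lies on another contig, PYGN01000457.1, from 74800 to 81455. Its levels in dsMock libraries 1, 3, 4 and 5 were 65.3, 66.5, 45.7 and 73.5 CPM, and in dsInR2 libraries 1, 4, 7 and 8 they were 66.3, 72.9, 68.7 and 68.0. In dsInR1 libraries 2, 5, 6 and 7 they were 90.7, 51.6, 61.3 and 57.9, and in dsInR3 libraries 3, 5, 6 and 7 they were 46.6, 35.9, 59.5 and 58.6. All 4 groups overlapped except dsInR2 and dsInR3, where every dsInR2 library was above every dsInR3 library. The locus of a hypothetical protein, C0J52_09756, overlaps CYP15A1_0 over 6178 bases, from 75278 to 81455, and had 0 reads in every library. How reads were divided between these loci, the sources used here do not say.

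CYP15A1_0 averaged 62.7 ± 11.9 CPM in the controls, 65.4 ± 17.4 after dsInR1, 69.0 ± 2.80 after dsInR2 and 50.2 ± 11.2 after dsInR3 (SD, n = 4). In dsInR2 against dsMock the log2 fold change was 0.14 (95% interval -0.28 to 0.56, edgeR adjusted p 0.639). That interval excludes a decrease of the size seen in CYP15A1_3. Between dsInR2 and dsInR3 the log2 difference was 0.46, with an unadjusted p of 0.0339 and an adjusted p of 0.107, and the F test over the groups gave an adjusted p of 0.283.

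CYP15A1_1 lies on yet another contig, PYGN01002614.1, from 99520 to 114208. It was at 17.4, 39.2, 27.7 and 30.6 CPM in dsMock libraries 1, 3, 4 and 5, and at 48.9, 28.7, 51.1 and 44.7 CPM in dsInR2 libraries 1, 4, 7 and 8. In dsInR1 libraries 2, 5, 6 and 7 it was at 28.0, 32.5, 31.3 and 21.0 CPM, and in dsInR3 libraries 3, 5, 6 and 7 at 18.1, 20.3, 37.1 and 38.4. Of the 4 dsInR2 libraries, 1, 7 and 8 were above all 12 others and library 4 lay among them.

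CYP15A1_1 averaged 28.7 ± 9.01 CPM in the controls, 28.2 ± 5.18 after dsInR1, 43.4 ± 10.1 after dsInR2 and 28.5 ± 10.8 after dsInR3 (SD, n = 4). The log2 fold change in dsInR2 against dsMock was 0.60 (95% interval -0.01 to 1.20, edgeR adjusted p 0.126), and the F test gave an adjusted p of 0.214. CYP15A1_1 therefore did not pass the test, although its interval against dsMock lay almost wholly above 0. In dsInR1 against dsInR2 the interval was -1.23 to -0.0131 (edgeR unadjusted p 0.0458, adjusted p 0.115). In dsInR2 against dsInR3 it was 0.00188 to 1.22 (unadjusted p 0.0494, adjusted p 0.14).

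The 3 genes were also set against each other within each library. Reads grow with transcript length, which was not used here, so such a ratio does not rank the genes by level. Its change between groups is free of length and of how libraries are scaled to each other.

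CYP15A1_3 had 25.1 to 78.6 times as many reads as CYP15A1_0 in the control libraries, 19.1 to 94.2 times as many in dsInR1 and 59.0 to 137 times as many in dsInR3. In dsInR2 the ratio ran from 0.0892 to 2.18, far under the range of every other group. On the log2 scale this ratio averaged 5.55 ± 0.68 in dsMock and -0.56 ± 2.17 in dsInR2 (SD, n = 4), with an exact two-sided permutation p of 0.0286, or 0.0857 adjusted over the 3 comparisons with dsMock.

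The read ratio of CYP15A1_3 to CYP15A1_1 ran from 60.4 to 183 in the controls and from 0.136 to 5.27 in dsInR2. The ratio of CYP15A1_0 to CYP15A1_1 lay between 1.34 and 3.76 in all 16 libraries. Its log2 value was 0.70 ± 0.43 in dsInR2 and 1.16 ± 0.55 in dsMock (SD, n = 4, exact two-sided permutation p = 0.2).

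Of the reads that fell on the 91 P450 genes, CYP15A1_3 took 69.3% ± 11.0 in the controls, 76.5% ± 9.51 in dsInR1 and 83.8% ± 3.63 in dsInR3 (SD, n = 4). In dsInR2 its share was 8.74% ± 7.84, from 0.697% to 17.4%, whereas it was never under 56.7% in the other 12 libraries. CYP15A1_0 took 1.52% ± 0.529 of these reads in the controls and 7.32% ± 1.03 in dsInR2, and CYP15A1_1 took 0.699% ± 0.274 and 4.53% ± 0.877. A share rises when another gene of the sum falls, so the larger shares of these 2 genes in dsInR2 do not stand for higher levels.

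**Figure D3:**
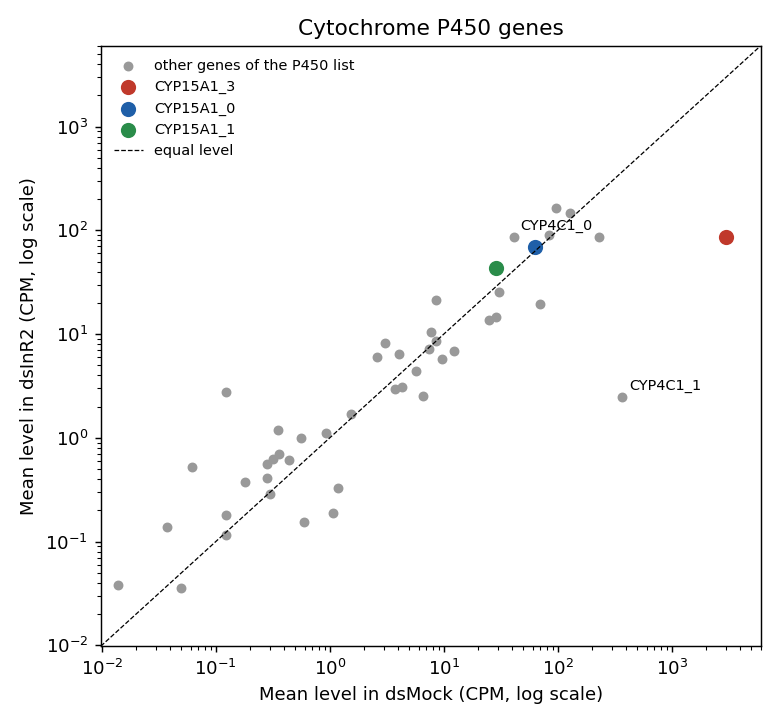
Mean CPM in dsInR2 (vertical axis) against mean CPM in dsMock (horizontal axis), both on log scales, for the 47 P450 genes with reads in both groups; the dashed diagonal marks equal levels. The point of CYP15A1_3 lies far below the diagonal, at 2999 and 85.6 CPM, while those of CYP15A1_0 and CYP15A1_1 lie close to it.

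Another 4 genes matched by name but not by reads. CYP15A1_5 (C0J52_09987), the one nearest to the read minimum, had 262 reads in all and at least 10 in 2 libraries. CYP15A1_4 (C0J52_09762) had 2 reads and CYP15A1_2 (C0J52_28272) had 0 reads, which over all libraries allows a level of up to 0.00989 CPM by counting error alone (3 counts of the total). The juvenile hormone esterase gene ESTJ (C0J52_27592), an enzyme that breaks the hormone down, had 4 reads, all in dsInR2 library 4. A related gene outside the name rule, the farnesoate epoxidase CYP15C1 (C0J52_09765), added after its values were seen, passed no test. Its mean level was 0.421 CPM in dsInR2 and 0.464 in dsInR1, against 0.623 in the controls and 1.11 in dsInR3.

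CYP15A1_5 overlaps CYP15A1_3 on the same contig over 14285 bases, from 313166 to 327450, the far end of the CYP15A1_3 locus. It had 182 reads in dsInR2 library 1, 49 in library 8, 5 in library 4 and 0 in library 7. In each of the other 12 libraries it had 1 to 4 reads. The 2 libraries in which CYP15A1_5 was high are the 2 in which CYP15A1_3 was lowest, at 35.0 and 6.07 CPM.

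The sources used here do not say how reads of overlapping or similar genes were divided, so the counts of the 2 loci are uncertain to that extent. In dsInR2 libraries 1 and 8 the 182 and 49 reads of CYP15A1_5 stand beside 694 and 170 reads of CYP15A1_3. Whether the division of reads between the loci has a part in these values was not tested.

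**Figure D4:**
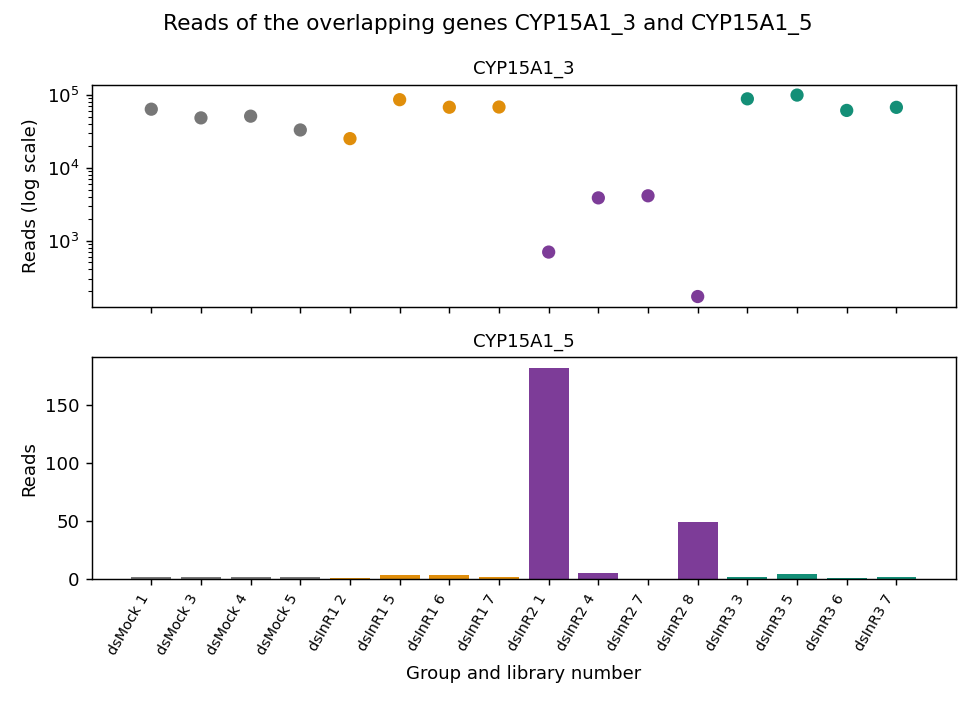
Reads per library of the overlapping genes CYP15A1_3 (points, log scale) and CYP15A1_5 (bars from 0), coloured by group. The dsInR2 libraries 1 and 8 have the lowest CYP15A1_3 counts, 694 and 170, and the highest CYP15A1_5 counts, 182 and 49.

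The same 2 libraries also stood low for C0J52_15443, which took 0.0822% of the reads in dsInR2 library 1 and 2.3e-04% in library 8, against 6.99% in library 4 and 6.38% in library 7. Across the 16 libraries the log2 CPM of this gene and of CYP15A1_3 correlated with Pearson's r = 0.93, and with 0.92 after the group means were subtracted. Over the 12 libraries without dsInR2 the r was -0.05, so the relation rests on the dsInR2 libraries. Whether what sets those 2 libraries apart has a part in the CYP15A1_3 values was not tested.

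Genes whose log2 CPM over the 16 libraries was most like that of CYP15A1_3 were sought among the 4528 other tested genes with an informative product name. Of these, 74 had r above 0.9 and 22 had r below -0.9. The values of CYP15A1_3 fall into 2 ranges, dsInR2 and the rest. A high r over all 16 libraries therefore describes mainly that split, and r within groups is given beside it. The genes share libraries and depth, and no test was made.

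Of the 5 most like, 5-aminolevulinate synthase (alas2) had r = 0.98 and the cGMP-dependent protein kinase for had r = 0.96. The 2 loci named extracellular serine/threonine protein had r = 0.97 (C0J52_18475) and 0.96 (C0J52_18476). The last, a putative glucosamine 6-phosphate N-acetyltransferase (C0J52_03483), had r = 0.96. After the group means were subtracted, r was 0.87 for alas2, 0.82 for the gene for, 0.78 for C0J52_18475, 0.75 for C0J52_18476 and 0.66 for C0J52_03483. Over the 12 libraries without dsInR2 it was 0.62 for alas2, 0.63 for the gene for, 0.37 for C0J52_18475, 0.33 for C0J52_18476 and 0.76 for C0J52_03483. alas2, whose product starts heme synthesis, was at 222 ± 18.0 CPM in dsMock and 22.5 ± 12.7 in dsInR2 (SD, n = 4).

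The 3 most unlike were PHYHD1 (r = -0.95), the alpha-mannosidase Man2a2 (r = -0.95) and the adiponectin receptor AdipoR_1 (r = -0.94). The other epoxidase genes were not like CYP15A1_3 over the 16 libraries, with r = -0.41 for CYP15A1_0 and -0.57 for CYP15A1_1. Within the 12 libraries without dsInR2 these were -0.71 and 0.02.

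The list of genes upstream of the epoxidase held 22 genes of the mevalonate pathway, prenyl diphosphate synthases and farnesol dehydrogenases, of which 18 were tested. In dsInR2 against dsMock 3 were higher, 2 were lower and 13 did not pass in edgeR, beside 17.6% of all tested genes called higher and 14.7% lower, with a median log2 fold change of 0.08 beside 0.04 over all tested genes. None of the 18 passed in dsInR1 or dsInR3 against dsMock. The share of the list that was called and its median lay close to those of all genes.

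Among the mevalonate enzymes, phosphomevalonate kinase (PMVK), which makes mevalonate diphosphate, rose from 13.6 ± 1.64 CPM in dsMock to 27.3 ± 3.40 in dsInR2 (SD, n = 4; log2 fold change 1.0, SE 0.17, edgeR adjusted p 0.000405). The next enzyme, diphosphomevalonate decarboxylase (MVD), went down from 4.13 ± 0.667 to 1.94 ± 0.833 CPM (adjusted p 0.00728, log2 fold change -1.08, SE 0.28). Isopentenyl-diphosphate isomerase (IDI1), which interconverts the isoprene building blocks, went down from 10.2 ± 1.61 to 6.58 ± 0.926 CPM (adjusted p 0.00472, log2 fold change -0.64, SE 0.15). PMVK thus moved in one direction, and MVD and IDI1 in the other.

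The remaining enzymes of this stretch did not pass. Mevalonate kinase (MVK) had a log2 fold change of -0.61 (edgeR adjusted p 0.0755) and hydroxymethylglutaryl-CoA synthase 1 (HMGCS-1) one of 0.81 (adjusted p 0.0539), with 23.4 ± 15.6 CPM in dsInR2 against 13.3 ± 1.70 in dsMock. The HMGCS-1 value rests largely on dsInR2 library 1, without which it was 0.23 (adjusted p 0.288). It passed without dsInR2 library 4, 7 or 8, at 0.94, 1.02 and 0.92, and MVK passed without dsInR3 library 3, at -0.61.

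Of the farnesyl diphosphate synthases, which make the sesquiterpene precursor of the hormone, fps was at 182 ± 38.0 CPM in dsMock and 240.5 ± 47.0 in dsInR2 and FDPS at 16.3 ± 2.18 and 19.2 ± 11.1. Neither passed, with log2 fold changes of 0.40 and 0.23 and edgeR adjusted p of 0.108 and 0.589.

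Farnesol dehydrogenases oxidise farnesol toward farnesoic acid, upstream of methyl farnesoate. SDR-1_3 rose from 101 ± 34.7 CPM in dsMock to 211 ± 48.5 in dsInR2 (log2 fold change 1.06, edgeR adjusted p 0.00147) and SDR-1_5 from 32.6 ± 12.0 to 87.2 ± 13.2 (log2 fold change 1.42, adjusted p 0.00203). In dsInR3, SDR-1_3 was at 192 ± 24.4 CPM, with an adjusted p of 0.0616 against dsMock and of 0.697 between dsInR2 and dsInR3.

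**Figure D5:**
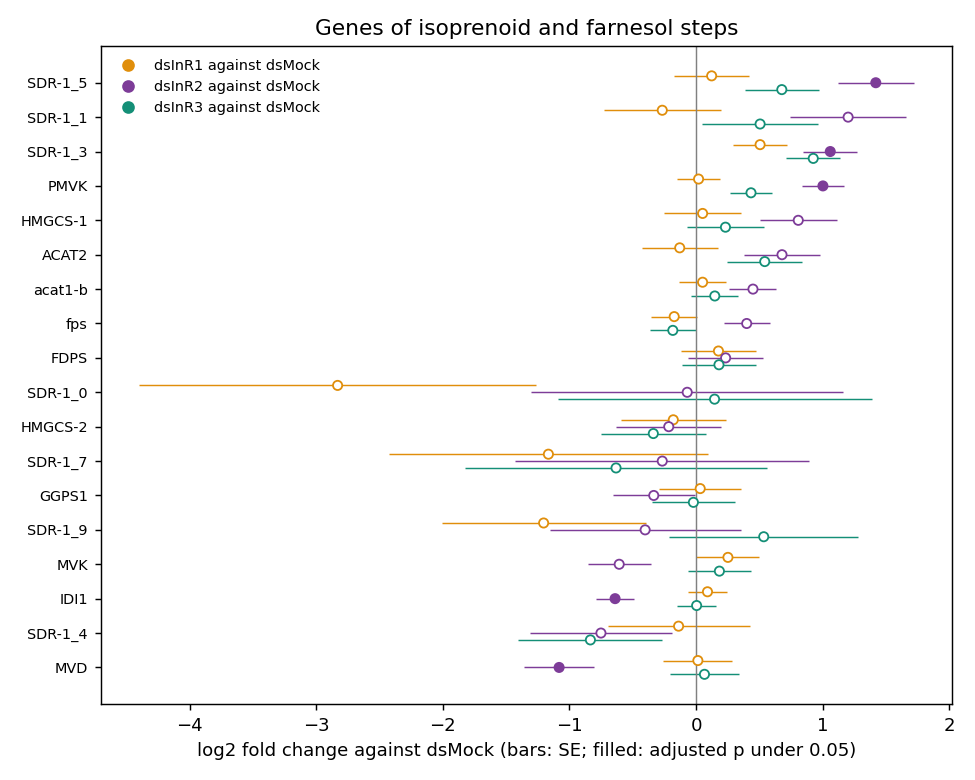
Log2 fold change against dsMock (edgeR) of the 18 tested genes of isoprenoid and farnesol metabolism in dsInR1, dsInR2 and dsInR3, with the SE as bars and filled points for an adjusted p under 0.05. PMVK, SDR-1_3 and SDR-1_5 passed on the higher side and IDI1 and MVD on the lower, all in dsInR2.

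P450 enzymes take their electrons from NADPH-cytochrome P450 reductase, and this gene (Cpr) fell from 189 ± 19.9 CPM in dsMock to 96.4 ± 15.5 in dsInR2 (SD, n = 4; log2 fold change -0.97, edgeR adjusted p 0.000433). Over the list of 92 P450 genes and the reductase, 38 were tested, 4 were higher and 8 were lower (32.3% of all tested genes were called in either direction, close to the share of this list), with a median log2 fold change of 0.05 beside 0.04 over all tested genes. The 8 include CYP15A1_3 and Cpr. The 4 became 1 without dsMock library 1 or without dsInR2 library 1, and 2 without dsMock library 3, 4 or 5, dsInR1 library 5 or dsInR2 library 7.

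CYP4C1_1 had the largest fitted decrease among the tested P450 genes, from 368 ± 433 CPM in dsMock to 2.48 ± 1.51 in dsInR2 (log2 fold change -7.20, SE 1.15, edgeR adjusted p 0.000284). Its control libraries ran from 13.7 to 999 CPM, so its starting level was much less even than that of CYP15A1_3. CYP4C1_1 was also at lower means in dsInR1 (96.0 ± 52.8 CPM) and dsInR3 (25.8 ± 17.3), where it did not pass against dsMock. CYP6K1_5 fell from 9.62 ± 1.22 to 5.80 ± 1.20 CPM (log2 fold change -0.73, adjusted p 0.00531). 

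CYP4C1_0, a gene named after its values were seen, had a log2 fold change of 1.08 (edgeR adjusted p 0.0292), but no longer passed without dsMock library 1 or 4 or without dsInR2 library 1, 7 or 8 (0.88, 0.94, 0.95, 0.997 and 1.08). CYP15A1_0 and CYP15A1_1 were among the 26 of the list that did not pass.

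Allatostatins are neuropeptides that inhibit hormone synthesis in the corpora allata of cockroaches. The allatostatin gene ALLS was at a low level in this tissue, 2.35 ± 0.937 CPM in dsMock, and fell to 0.511 ± 0.356 CPM in dsInR2 (SD, n = 4; log2 fold change -2.17, SE 0.51, edgeR adjusted p 0.00408).

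Of the hemolymph proteins that can carry the hormone, apolipophorin (APLP) rose from 29390.1 ± 6631 CPM in dsMock to 66495 ± 7857 in dsInR2 (log2 fold change 1.18, edgeR adjusted p 0.00259). Hexamerin (HEXA) fell from 225 ± 69.3 to 44.5 ± 51.4 CPM (log2 fold change -2.34, adjusted p 0.0252), a call that was lost without dsMock library 1 (-2.21) or without dsInR2 library 1 (-2.08) or 4 (-2.29).

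The carboxylesterase list, relatives of juvenile hormone esterase by name, had 9 tested genes of 17, of which 1 rose and 1 fell in dsInR2, where 17.6% of all tested genes rose and 14.7% fell. EST6_0 rose from 7.86 ± 2.32 to 48.1 ± 21.6 CPM (log2 fold change 2.61, edgeR adjusted p 0.000129). ESTF_1 fell from 1.94 ± 1.52 to 0.114 ± 0.167 CPM (log2 fold change -4.05, adjusted p 0.00164). Without dsMock library 3 or dsInR2 library 4, 2 genes of this list rose.

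Of 4 tested genes that process farnesylated proteins or attach a farnesyl group, 2 rose in dsInR2, where 17.6% of all tested genes did, and 2 did not pass. Cox10, which farnesylates heme, went from 9.65 ± 1.29 to 18.4 ± 3.26 CPM (log2 fold change 0.93, edgeR adjusted p 0.00173), and the CAAX protease ZMPSTE24 from 39.3 ± 4.39 to 57.4 ± 4.06 (log2 fold change 0.55, adjusted p 0.0113). In dsInR3, ZMPSTE24 was at a mean of 62.6 CPM, with a log2 fold change of 0.67 and an edgeR adjusted p of 0.0577 against dsMock. Between dsInR2 and dsInR3 its adjusted p was 0.598. No gene of any of these lists passed in dsInR1 or dsInR3 against dsMock. By name, no gene of the table matched the hormone's receptor and response factors or the epoxide hydrolases, and the only match for the yolk proteins was a vitellin-degrading protease that was not tested, so these steps were not analysed here.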

How the data were processed

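Read counts per gene were used as deposited by the authors, as whole numbers that were not normalized, in 1 table of 28676 genes and 16 libraries. The table's other 32 columns of per-library values were not used. The submitters' processing notes name HISAT2, StringTie, FastQC and Trimmomatic with no version. How reads of similar or overlapping genes were assigned, and whether counting used strand, the sources used here do not say. Libraries were made with a stranded mRNA kit, per the labels' protocols.

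Columns name a group and a library number that is not the replicate number of the sample titles, so they were assigned to groups only. The control columns carry the name dspolyh and were taken as dsMock, the group that remained. The labels give 2 schedules of injection, 12 and 5 days before extraction in one and counted from ootheca transport in the other. Animals per library are not stated, so p-values reflect only how far these samples spread. No 2 replicates agreed within counting error (chi-square per degree of freedom at least 17.9 over 24 pairs).

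Tests were two-sided quasi-likelihood tests in edgeR 4.0.16 (R 4.3.3) with TMM scaling and filterByExpr (10536 genes kept), 1 coefficient per group over all 16 libraries, and Benjamini-Hochberg adjustment over all tested genes at a threshold of 0.05. The scripts were checked on simulated counts. Log2 CPM for correlations used a prior count of 2. Alternatives used DESeq2 1.42.0, limma 3.58.1 (voom), other scalings and filters, and libraries left out. Counting limits cover counting error only, since reads were not marked by molecule.

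Members and gene lists, which are patterns of product names, were chosen with earlier results of these data known. Members of over 20 CPM are given in every library. Of each list, up to 4 genes with the smallest F test p over the groups are named, plus textbook pathway genes that did not pass. CYP4C1_0 and CYP15C1 are named outside this rule, and C0J52_15443 for its share of reads. Names were matched to locus tags of Bger_1.1 in RefSeq, where all 28676 genes were found. No sequences were used here. Some tested members of the list of neuropeptide regulators are not reported here.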

Additional observations from a re-analysis of the deposited data

How the results depend on the processing

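The 3 epoxidase genes kept their side of the threshold in all 6 comparisons under all 23 alternatives. For CYP15A1_3 in dsInR2 against dsMock the log2 fold change ranged from -5.96 (limma-voom) to -4.74, with adjusted p from 9.73e-16 to 0.00451, and from -5.55 to -4.74 when 1 library was left out. Counts of listed genes moved more in dsInR2 against dsMock. Over all genes, this comparison gave 1851 higher and 1551 lower of 10536 tested. The stricter filter gave 1782 and 1524 of 8781, and DESeq2 1950 and 1756 of 10536. With limma-voom it was 1739 and 1584 of 10536, and with only the 2 groups compared 1446 and 1331 of 10016. Counts over all genes were not taken with 1 library left out. Of the isoprenoid list, 5 genes in place of 3 were higher under the stricter filter (1 CPM in 8 libraries) and under DESeq2, and 3 to 5 when 1 library was left out. Of the P450 list, 2 in place of 4 were higher under limma-voom and with only the 2 groups compared, with 1 to 4 higher and 5 to 8 lower when 1 library was left out. With only the 2 groups compared, 0 carrier genes were higher, 0 were lower and 0 carboxylesterases were lower, in place of 1 each. The carboxylesterase ESTF_1 was not among the tested genes in that setting, and it passed in all 22 alternatives that tested it. When 1 library was left out, 0 to 1 carriers were lower and 1 to 2 carboxylesterases were higher. Causes of the other changes were not tested. Over all genes, dsInR3 against dsMock gave 32 calls, but 17 with no filter, 88 with the stricter filter, 443 in DESeq2, 53 in limma-voom and 12 with only the 2 groups, and dsInR2 against dsInR3 gave 2411, but 1625 with only the 2 groups. No paired analysis was possible because the columns carry library numbers that are not the replicate numbers of the titles. Depth limits statements on genes of a few reads, such as CYP15A1_5 and ESTJ.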
